A study of Caenorhabditis elegans with 16 samples.

Results

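Embryos of the strain MLC2290, which kept mir-54, mir-55 and mir-56 as the remaining members of the miR-51 family, were compared with embryos of the wild-type strain N2. The cluster-only strain carried the deletion alleles nDf67 and n4100 on chromosome IV, which together remove mir-51, mir-52 and mir-53, and its X chromosome kept the miR-54 cluster. The comparison used 4 of the 16 libraries of the series, 2 from cluster-only embryos and 2 from wild-type embryos, chosen by the genotype in the labels. The spread behind the p-values was estimated over all 16 libraries of 8 strains, since 2 libraries per strain leave little to estimate it from. The other strains were the family null MLC1800 (nDf67, n4100, nDf58 and the array lucEx1057, which holds the cluster), MLC2394 (nDf67 and n4100, mir-56 also deleted) and MLC2393 (nDf67 and n4100, mir-55 and mir-56 also deleted). In MLC1997, MLC1917 and MLC1918 (nDf67 and nDf58) the hairpin at the mir-52 locus is replaced by that of mir-51, of mir-53, or of mir-57 with a changed seed. Every library was made from small RNA of 50 hand-collected C. elegans embryos grown to the comma stage. At this stage the first phase of elongation gives way to the muscle-driven phase. Both strains grew at the same temperature on the same bacteria without treatment, and all libraries carry 1 batch label. The question was how much family miRNA remains when the cluster is the sole source, whether its 3 miRNAs change when the others are missing, and whether other miRNAs change with them.

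A miRNA hairpin is cut into a duplex of 2 strands. One strand, the guide, is loaded into an Argonaute protein and pairs with target mRNAs mainly through its seed near the 5′ end, while the other strand, the passenger, is mostly degraded. miR-51 is the C. elegans ortholog of the deeply conserved miR-100, the members of the miR-51 family share a seed, and the family as a whole is required for C. elegans embryos to develop. Its guides lie on the 5p arm in mir-51, mir-52 and mir-53 and on the 3p arm in mir-54, mir-55 and mir-56.

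The cluster-only libraries held 131570 and 114351 UMIs on miRNA strands, and the wild-type libraries held 844718 and 229603. UMIs are random tags that mark single ligated molecules, so that copies made by PCR are counted once. Levels are given as CPM, UMIs per 1000000 UMIs of the strands outside the family, scaled by the trimmed mean of M values (TMM), so that loss of the family itself does not move the scale. Spike-ins were not used here, and a change shared by all miRNAs cannot be seen on this scale. Nothing in the labels says whether the 2 libraries of a strain came from separate cultures, so p-values measure the spread between these libraries. The family took 15.0% and 13.7% of all UMIs in cluster-only libraries, against 27.8% and 31.8% in wild-type libraries. Of 366 strands listed in the series, 162 passed a filter of at least 10 UMIs in at least 2 libraries and were tested, 12 of them from the family.

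In the WBcel235 build, the cluster hairpins mir-54 (WBGene00003282; X, 13144996 to 13145094), mir-55 (WBGene00003283; X, 13144827 to 13144924) and mir-56 (WBGene00003284; X, 13144691 to 13144787) follow one another on the minus strand. They span 404 bases, with gaps of 71 and 39 bases, inside an intron of F09A5.3, a gene annotated on the opposite strand. Of the deleted hairpins, mir-51 (WBGene00003279; IV, 11026013 to 11026112) and mir-53 (WBGene00003281; IV, 11027593 to 11027691) are minus-strand neighbours 1480 bases apart. mir-52 (WBGene00003280; IV, 14034008 to 14034107) stands alone on the plus strand. No protein-coding gene overlaps any of the 3 deleted hairpins.

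The guides of the 3 deleted hairpins were nearly absent from cluster-only embryos, and all 6 of their strands fell. These were the only strands of the 162 tested that passed an adjusted p of 0.05 in the quasi-likelihood test of edgeR with all 16 libraries in 1 fit, which is 3.7% of strands tested. miR-52-5p had 819 and 898 CPM in cluster-only libraries, against 191114 and 255780 in wild-type libraries, where it was the most abundant strand of all. miR-51-5p had 289 and 363 CPM in cluster-only libraries, against 73806 and 85682 in wild-type libraries. miR-53-5p, the least abundant guide of the family, had 49.6 and 111 CPM in cluster-only libraries, against 9402 and 9615 in wild-type libraries. No library of one strain came near the range of the other, and the labels of all 4 libraries match their content. The fitted log2 fold changes were -8.02 ± 0.40 for miR-52-5p, -7.93 ± 0.48 for miR-51-5p and -6.91 ± 0.33 for miR-53-5p (SE, as after all log2 fold changes below; edgeR adjusted p = 1.2e-10, 1.24e-09 and 1.2e-10).

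The residue was small but was counted in both cluster-only libraries. miR-52-5p had 99 and 89 UMIs there, miR-51-5p had 35 and 36, and miR-53-5p had 6 and 11. Relative to the wild-type mean, this was 0.366% and 0.402% for miR-52-5p, 0.363% and 0.455% for miR-51-5p, and 0.522% and 1.17% for miR-53-5p. The exact Poisson interval of miR-53-5p in the second library runs from 55.4 to 198 CPM and covers counting error only. In the 4 other strains that lack all 3 hairpins (MLC1800, MLC2394, MLC2393 and MLC1918), the residue lay between 0.228% and 0.705% of wild type for miR-52-5p, between 0.128% and 0.861% for miR-51-5p and between 0.139% and 0.798% for miR-53-5p. For miR-51-5p and miR-52-5p the cluster-only values fall inside these ranges, and for miR-53-5p the second cluster-only library lies above its range. The source of the residual UMIs was not tested.

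**Figure D1:**
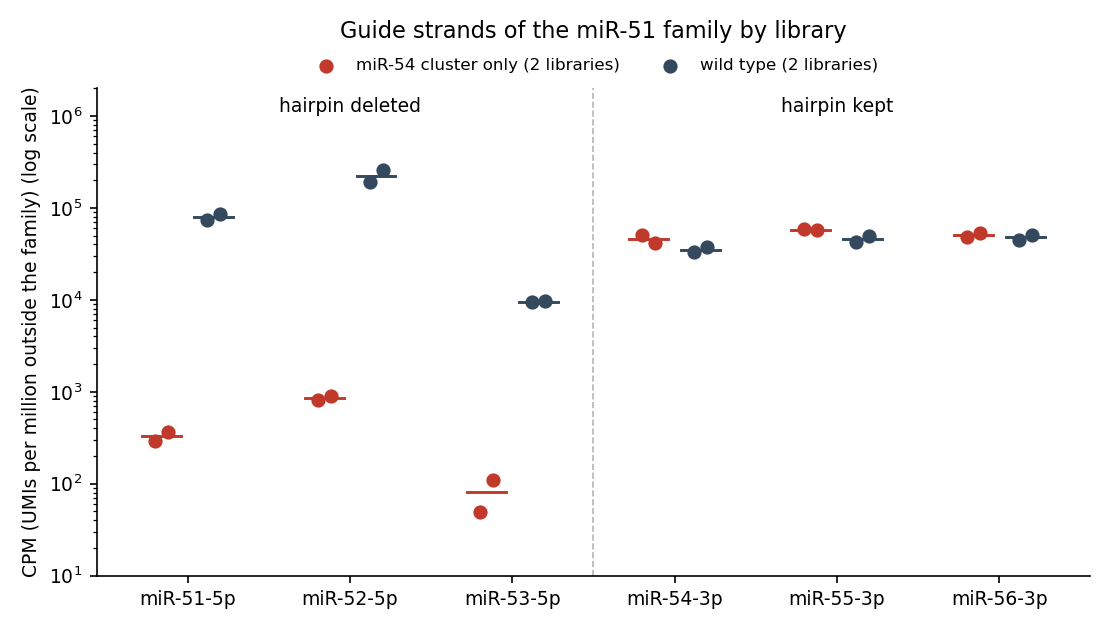
Guide strands of the 6 family members in each library, as CPM on a log axis, with cluster-only libraries left and wild-type libraries right. Points are libraries and bars are means of 2. The guides of the deleted hairpins sit between 49.6 and 898 CPM in cluster-only libraries, against 9402 to 255780 in wild-type libraries, whereas those of the kept hairpins lie between 33183 and 58454 in both strains.

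The passengers of the deleted hairpins fell with their guides. miR-52-3p was not listed, and so counted as 0 UMIs, in both cluster-only libraries, against 5943 and 1431 UMIs in wild-type libraries. With the floor of 3 UMIs over both libraries together, miR-52-3p was at least 756-fold lower (edgeR adjusted p = 7.1e-10). miR-51-3p had 0 and 1 UMI in cluster-only libraries, against 735 and 168 in wild-type libraries (log2 fold change -7.78 ± 0.64, edgeR adjusted p = 4.69e-06). The single UMI equals 10.1 CPM, with an exact Poisson interval of 0.255 to 56.2. miR-53-3p, also not listed in either cluster-only library and with 54 and 13 in wild-type libraries, was at least 6.87-fold lower (edgeR adjusted p = 0.0122). Its call rested on few UMIs: the adjusted p was 0.0540 without the first wild-type library, and 0.115 and 0.0686 without the first and the second cluster-only library.

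The residue of mir-52 held guide UMIs alone in cluster-only embryos. Among strains that also lack mir-52, with both libraries summed, MLC1800 had 5 passenger UMIs of mir-52 beside 201 guide UMIs. MLC1918 had 5 beside 105, MLC2393 had 3 beside 378 and MLC2394 had 0 beside 83. In cluster-only embryos 0 of 188 UMIs of mir-52 were on the passenger, with an exact (Clopper-Pearson) upper bound of 1.94%, against 5.17% and 3.72% in the wild-type libraries. The bound pools both libraries and covers counting error only, the wild-type shares differ between libraries, and a difference between the strains was not tested. For mir-51 and mir-53 the same share, 1 of 72 and 0 of 17 UMIs, has upper bounds of 7.50% and 19.5%, and no difference from the wild-type shares of 0.925% to 1.72% was detectable at this depth.

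The 3 kept guides stayed close to their wild-type levels, and none passed the test. miR-54-3p had 50662 and 41921 CPM in cluster-only libraries, against 33183 and 37232 in wild-type libraries. miR-55-3p had 58454 and 56906 in cluster-only libraries, against 42710 and 49410 in wild-type libraries. miR-56-3p had 47718 and 52862 in cluster-only libraries, against 45096 and 50688 in wild-type libraries. For miR-54-3p and miR-55-3p both cluster-only libraries were above both wild-type libraries, while those of miR-56-3p interleaved with them.

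The log2 fold changes were 0.40 for miR-54-3p (95% interval -0.07 to 0.86, edgeR adjusted p = 0.544), 0.32 for miR-55-3p (-0.25 to 0.90, adjusted p = 0.778) and 0.07 for miR-56-3p (-0.43 to 0.57, adjusted p = 0.955). Each interval excludes a doubling, which is 1 on this scale, and includes no change. With the 4 libraries of these strains alone, the intervals of miR-54-3p (0.07 to 0.72) and miR-55-3p (0.02 to 0.63) exclude no change. That of miR-56-3p (-0.24 to 0.38) includes it. None of the 3 passed in that fit (edgeR adjusted p = 0.109, 0.173 and 0.767). On a scale that sums all miRNA strands, family included, miR-54-3p passed the test at a log2 fold change of 0.85 (edgeR adjusted p = 0.0233). That scale also puts the median of the 150 strands outside the family at 0.33, in place of -0.12. Relative to that median miR-54-3p stood at 0.53, beside 0.52 on the TMM scale.

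Summed over the cluster, the 3 guides reached 156834 and 151689 CPM in cluster-only libraries, against 120988 and 137329 in wild-type libraries. Their mean was 1.19 ± 0.11 of wild type (SD propagated from both strains, n = 2 each), and each cluster-only library was above each wild-type library. The exact two-sided permutation test gave p = 0.333, which is the smallest that 2 libraries against 2 allow. The ratio ran from 1.15 to 1.64 under the other columns, corrections and scales tried. In means, the cluster stood 25102 CPM above wild type and the deleted guides 311435 CPM below it. The difference in the cluster, for which no kept guide passed the test, equals 8.06% of that in the deleted guides, and was 4.84% without the first wild-type library and 12.2% without the second.

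All 6 guides together summed to 157992 and 153060 CPM in cluster-only libraries, against 395311 and 488407 in wild-type libraries. The family total of cluster-only embryos was 35.2% ± 5.30 of wild type (SD, n = 2 each; exact permutation p = 0.333). The cluster made up 99.3% and 99.1% of family guides in cluster-only libraries, against 30.6% and 28.1% in wild-type libraries, where miR-52-5p alone made up 48.3% and 52.4%. Reads per UMI of miR-52-5p were 1.64 and 1.26 in the wild-type libraries, above the 1.27 and 1.10 of all strands there, and 1.08 and 1.01 in cluster-only libraries. When more molecules than distinct tags share a UMI, counts of such strands are too low, and the ratio of the family total to wild type ran from 0.301 to 0.483 under the other columns, corrections and scales tried.

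**Figure D2:**
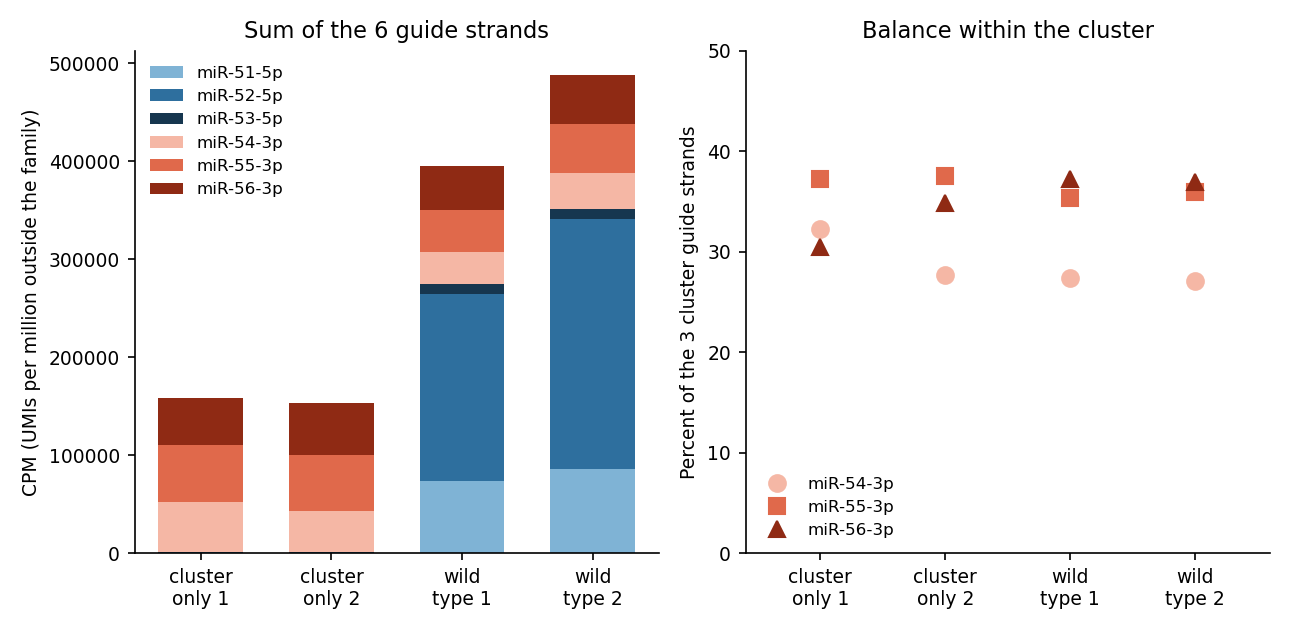
Left, the 6 family guides stacked for each library, in CPM. The cluster-only bars reach 157992 and 153060, against 395311 and 488407 in wild-type libraries, and the deleted guides are too few to see in the cluster-only bars. Right, the percent of the 3 cluster guides that each one makes up in the same libraries. miR-56-3p is at 30.4% and 34.8% in cluster-only libraries, against 37.3% and 36.9% in wild-type libraries.

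The 3 cluster guides come from neighbouring hairpins, so their ratios within a library need no scale. miR-55-3p stood to miR-54-3p as 1.15 and 1.36 in cluster-only libraries, against 1.29 and 1.33 in wild-type libraries, and the libraries of the strains overlapped. miR-56-3p stood to miR-54-3p as 0.942 and 1.26 in cluster-only libraries, against 1.36 and 1.36 in wild-type libraries. miR-56-3p stood to miR-55-3p as 0.816 and 0.929 in cluster-only libraries, against 1.06 and 1.03 in wild-type libraries. Both ratios with miR-56-3p were lower in cluster-only libraries in 4 of 4 pairs of libraries (exact permutation p = 0.333, the smallest possible), and the cluster-only libraries differed more from each other than the wild-type libraries did. The ratio of miR-55-3p to miR-54-3p in cluster-only embryos was 0.961 of wild type with both libraries and 1.04 without the first cluster-only library.

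The passengers of the cluster did not pass the test either. miR-54-5p had 2928 and 2814 CPM in cluster-only libraries, against 2423 and 2418 in wild-type libraries. miR-55-5p had 1009 and 938 in cluster-only libraries, against 1148 and 960 in wild-type libraries, and miR-56-5p had 1423 and 1281, against 1550 and 1837. Their log2 fold changes were 0.25 ± 0.26, -0.12 ± 0.32 and -0.32 ± 0.40 (SE; edgeR adjusted p = 0.841, 0.955 and 0.888). Summed, the 3 passengers stood at 1.01 ± 0.05 of wild type (SD, n = 2 each).

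The passenger share of each hairpin was low in both strains. miR-54-5p made up 5.46% and 6.29% of both strands of mir-54 in cluster-only libraries, against 6.80% and 6.10% in wild-type libraries, with overlap. miR-55-5p made up 1.70% and 1.62% of mir-55 in cluster-only libraries, against 2.62% and 1.91% in wild-type libraries. miR-56-5p made up 2.90% and 2.37% of mir-56 in cluster-only libraries, against 3.32% and 3.50% in wild-type libraries. The shares of miR-55-5p and miR-56-5p were lower in cluster-only embryos without overlap (exact permutation p = 0.333 each).

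mir-57, whose guide resembles the family but has another seed and is kept in both strains, served as a neighbour in sequence outside the family. miR-57-5p had 6386 and 7251 CPM in cluster-only libraries, against 8140 and 8275 in wild-type libraries (log2 fold change -0.27 ± 0.23, edgeR adjusted p = 0.808). Its passenger miR-57-3p had 248 and 303 in cluster-only libraries, against 261 and 318 in wild-type libraries. Neither strand passed the test, and the direction of miR-57-5p turned to 0.18 on the scale that sums all strands.

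Set against the family null strain MLC1800, which lacks all 6 hairpins and carries the cluster on an extrachromosomal array, cluster-only embryos were higher in exactly the 6 strands of mir-54, mir-55 and mir-56, again 3.7% of strands tested. The cluster guides summed to 156834 and 151689 CPM in cluster-only libraries, against 14482 and 10259 in null libraries. In MLC1997, MLC1917 and MLC1918, which carry nDf58 and not the array, the cluster guides summed to between 357 and 928 CPM. How much of the null level comes from the array was not tested. The log2 fold changes over the null were 3.96 ± 0.25 for miR-54-3p, 3.72 ± 0.30 for miR-55-3p and 3.32 ± 0.26 for miR-56-3p (SE; edgeR adjusted p = 7.57e-09, 8.36e-08 and 5.66e-08). This comparison shares the cluster-only libraries with the one above.

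Outside the family, 0 of 150 strands passed the test with all 16 libraries in 1 fit, by edgeR and likewise by DESeq2. On the scale that sums all strands, edgeR called 12 strands in place of 6. Of these, 6 were higher, miR-54-3p, miR-49-3p, miR-70-3p, miR-86-5p, miR-90-3p and miR-252-5p, and 6 were lower, against 0 higher and 6 lower on the TMM scale. At an unadjusted p under 0.05 on the TMM scale, edgeR gave 11 strands, 4 higher and 7 lower in cluster-only embryos. The median log2 fold change was -0.12, 138 strands (92%) lay within 2-fold, 6 were at least 2-fold higher and 6 at least 2-fold lower. Across the 150 strands, which are not independent replicates, the strain means had a Pearson correlation of 0.982 on the log scale. In simulated data for this comparison, the fit recovered 40.8% of 2-fold, 88.1% of 4-fold and 98.1% of 8-fold changes. There, 48 of the 150 strands outside the family were changed in each draw, and all strands shared 1 dispersion. These data differ in both respects, so the recovered shares may be too high for them. Changes of about 2-fold could be missed.

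**Figure D3:**
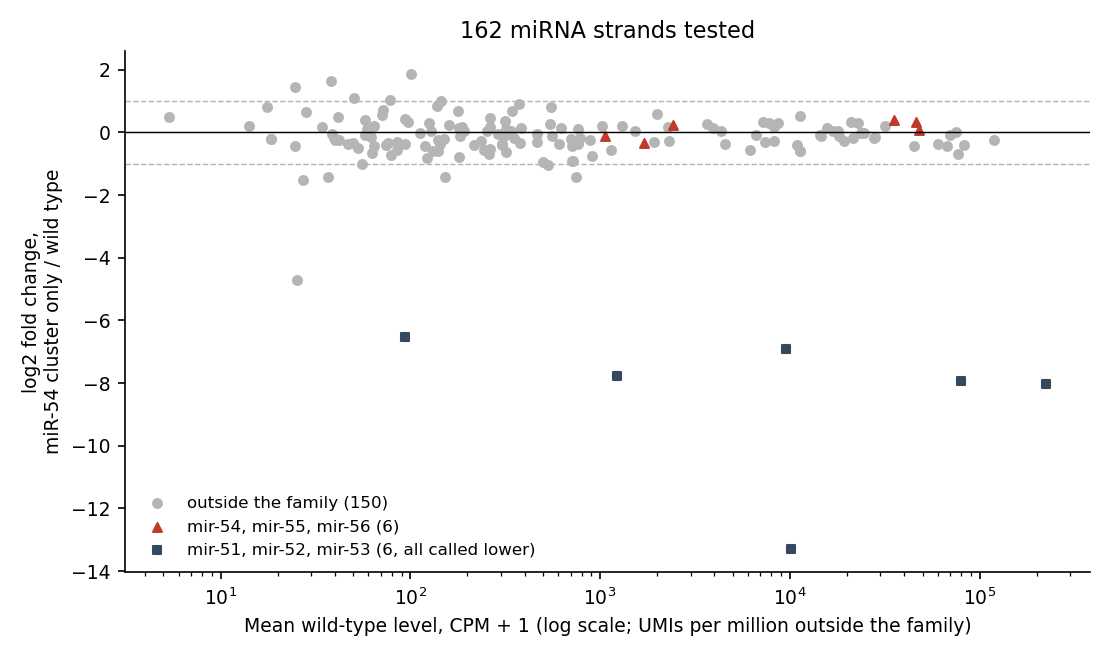
Log2 fold change of cluster-only over wild-type embryos for 162 strands against the wild-type level in CPM on a log axis. Grey points are the 150 strands outside the family, triangles the 6 strands of the kept hairpins, squares the 6 strands of the deleted hairpins, and dashed lines mark 2-fold. The squares at -13.29 (miR-52-3p) and -6.53 (miR-53-3p) are fitted values of strands counted as 0 UMIs in both cluster-only libraries, not measured folds, the other 4 squares run from -8.02 to -6.91, and 138 grey points lie between the dashed lines.

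In 69 of the 150 strands (46%) the libraries of the strains did not overlap, 21 (14%) with both cluster-only libraries above both wild-type libraries and 48 (32%) with both below. The median log2 fold change of the 150 strands varied with the scale, also among scales that leave out the family. It was -0.12 by TMM, -0.04 by the DESeq2 median of ratios and 0.04 by the sum of strands outside the family. The 10 strands outside the family with the smallest unadjusted p follow, none of them past the test. miR-70-3p, from a hairpin in an intron of pmp-5 on chromosome V, had 265 and 464 CPM in cluster-only libraries, against 102 and 96.7 in wild-type libraries (log2 fold change 1.85 ± 0.60, edgeR adjusted p = 0.162). miR-62-5p, the passenger of mir-62, had 306 and 252 in cluster-only libraries, against 922 and 566 in wild-type libraries (-1.42 ± 0.47, edgeR adjusted p = 0.163). miR-250-3p, a member of the miR-2 seed group, had 339 and 182 in cluster-only libraries, against 659 and 408 in wild-type libraries (-1.04 ± 0.38, edgeR adjusted p = 0.283). In these strands no library of one strain reached the range of the other, which their choice by smallest p favours.

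The next strands by that rule included abundant guides. miR-37-3p, of the miR-35 family, had 40174 and 54113 CPM in cluster-only libraries, against 79744 and 73531 in wild-type libraries (log2 fold change -0.70 ± 0.27, edgeR adjusted p = 0.306). miR-86-5p had 17883 and 14703 in cluster-only libraries, against 11256 and 11377 in wild-type libraries (0.53 ± 0.21, edgeR adjusted p = 0.306). miR-252-5p had 678 and 716 in cluster-only libraries, against 370 and 373 in wild-type libraries (0.91 ± 0.36, edgeR adjusted p = 0.306). The groups were again separate in each, which the same choice favours. The others were miR-44-5p, miR-43-5p and miR-45-5p, with log2 fold changes of -0.91, -0.92 and -1.43, and miR-241-5p of the let-7 family, which was not listed in either cluster-only library and had 16 and 3 UMIs in wild-type libraries.

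Which strands passed depended on the libraries in the fit. With the 4 libraries of these strains alone, the biological coefficient of variation was 13.7%, against 26.1% over all 16 libraries, and 21 of 138 strands passed an adjusted p of 0.05 (15.2%), 6 higher (4.35%) and 15 lower (10.9%) in cluster-only embryos. Beyond the 6 strands of the deleted hairpins, 15 of 126 strands outside the family passed (11.9%), 6 higher (4.76%) and 9 lower (7.14%). They were miR-70-3p, miR-360-5p, miR-36-5p, miR-252-5p, miR-244-5p and miR-86-5p, higher in cluster-only embryos, and miR-45-5p, miR-62-5p, miR-86-3p, miR-43-5p, miR-44-5p, miR-37-3p, miR-44-3p, miR-45-3p and miR-58a-3p, lower. Their adjusted p with all 16 libraries ran from 0.162 to 0.583. Reads that fit both miR-44-3p and miR-45-3p were divided between them, their levels are nearly equal in every library, and they count as 1 measurement.

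**Figure D4:**
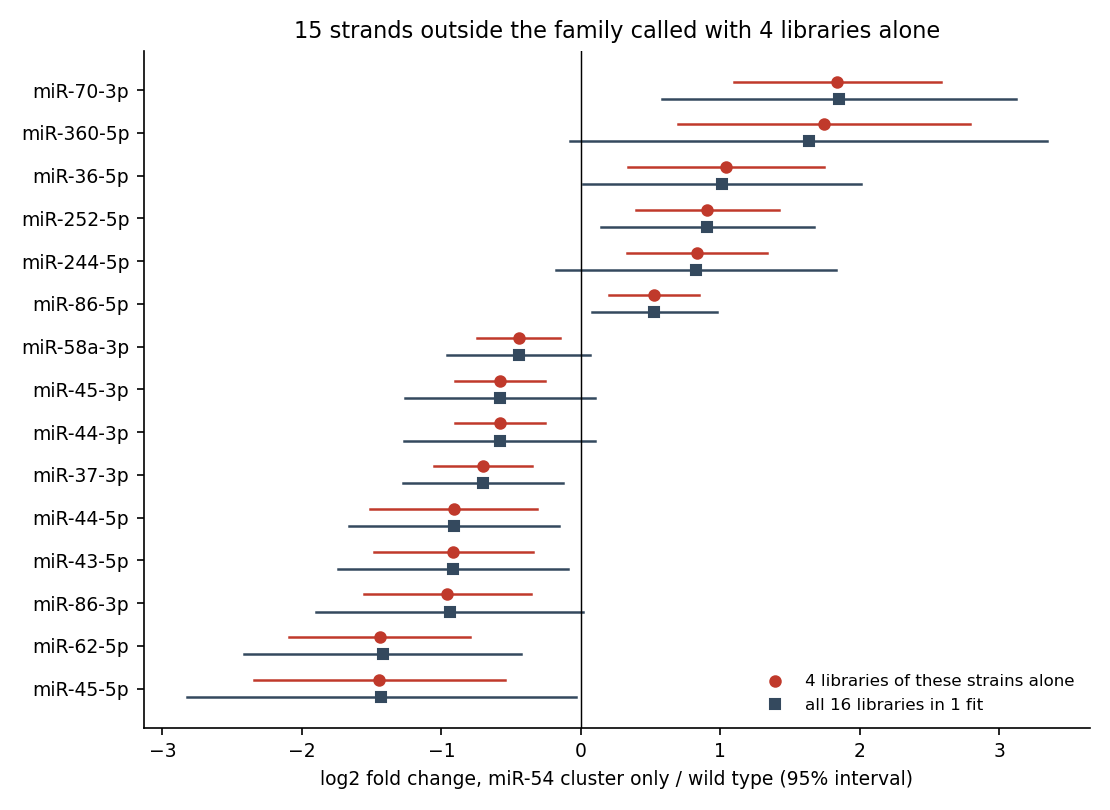
Log2 fold change of cluster-only over wild-type embryos with its 95% interval for the 15 strands outside the family that passed the test with 4 libraries alone, from that fit (circles) and from the fit of all 16 libraries (squares). The estimates of the fits nearly coincide, from 1.84 for miR-70-3p to -1.45 for miR-45-5p with 4 libraries, while the intervals are wider with 16.

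Several of these 15 had low counts. miR-360-5p had 17 and 7 UMIs in cluster-only libraries, against 15 and 7 in wild-type libraries, which were deeper. miR-45-5p had 5 and 7 UMIs in cluster-only libraries, against 85 and 22 in wild-type libraries. miR-70-3p had 32 and 46 UMIs in cluster-only libraries, against 58 and 14 in wild-type libraries. miR-58a-3p, the bantam family guide, was abundant at 51357 and 47790 CPM in cluster-only libraries, against 69490 and 65643 in wild-type libraries. For miR-58a-3p the separate groups differ by 0.734-fold of means, and its log2 fold change of -0.45 became 0.0052 on the scale that sums all strands.

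miR-70-3p was also at 535 and 992 CPM in the null libraries. In the null strain miR-70-3p had a log2 fold change of 2.92 over wild type (edgeR adjusted p = 0.00222), a comparison that uses the same wild-type libraries. Cluster-only embryos stood at -1.07 against the null for miR-70-3p (edgeR adjusted p = 0.434). miR-62-5p stood at -2.53 in null over wild type (edgeR adjusted p = 0.00222) and at 1.11 in cluster-only over null embryos (adjusted p = 0.388). For neither strand was a difference between cluster-only and null embryos shown.

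The miR-35 family, the main miRNAs of early C. elegans embryos and needed for their development, gave 8 of the 150 strands outside the family, miR-35-3p to miR-42-3p. None passed the test, 7 of 8 had a negative log2 fold change, beside 90 of all 150 strands outside the family (60%), and 5 of 8 had both cluster-only libraries below both wild-type libraries, beside 48 of 150 (32%). Their median log2 fold change was -0.30, beside -0.12 for all strands outside the family. miR-35-3p had 87759 and 113036 CPM in cluster-only libraries, against 112291 and 124820 in wild-type libraries, and the strains overlapped. miR-36-3p had 48462 and 76732 in cluster-only libraries, against 85954 and 79955 in wild-type libraries, and miR-40-3p had 73417 and 77811, against 74264 and 76315. Summed, the family was at 0.824 of wild type. The hairpins mir-35 to mir-41 lie within 797 bases of chromosome II on the plus strand, and their strands are not independent replicates. By the DESeq2 median of ratios 6 of the 8 strands were negative, and by the sum of strands outside the family 5 of 8. On the scale that sums all strands, 1 of 8 was negative, while the family's median remained 0.17 below that of all strands outside the family.

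The strands of mir-42, mir-43 and mir-44, neighbours within 308 bases of chromosome II (11889811 to 11890118, plus strand), all had negative log2 fold changes, 6 of 6, beside 60% of all strands outside the family. In 5 of 6 both cluster-only libraries were below both wild-type libraries, beside 32%. Their median was -0.66, 0.54 below that of all strands outside the family, and -0.21 with 4 of 6 negative on the scale that sums all strands. miR-42-3p, already counted in the miR-35 family above, had 35013 and 32825 CPM in cluster-only libraries, against 45469 and 45182 in wild-type libraries. miR-43-5p had 314 and 444 in cluster-only libraries, against 652 and 781 in wild-type libraries, and miR-44-5p had 289 and 464, against 649 and 767. miR-43-3p was the strand with overlap, at 6609 and 5405 in cluster-only libraries, against 9068 and 5637 in wild-type libraries. None of the 6 passed the test with all 16 libraries. With 4 libraries alone 3 passed, beside 15 of 126 outside the family (11.9%), and 1 of the 3 is miR-44-3p, whose UMIs are split with miR-45-3p of another locus. These hairpins were singled out after their values were seen.

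None of the other lists held a strand that passed the test with all 16 libraries. The bantam family, which includes miR-58a-3p, had a median log2 fold change of -0.06 over the 4 of its 9 strands that were tested, and miR-80-3p had 17453 and 17204 CPM in cluster-only libraries, against 16103 and 17656 in wild-type libraries. The miR-44 seed group had a median of -0.58 over the 3 of its 4 strands that were tested, of which miR-44-3p and miR-45-3p are the split pair. The miR-2 seed group had a median of -0.24 over 4 strands, with miR-2-3p at 24756 and 24374 in cluster-only libraries, against 28351 and 27202 in wild-type libraries. The mir-64 cluster had a median of -0.07 over 4 strands, with miR-66-5p at 17982 and 20028 in cluster-only libraries, against 20532 and 22408 in wild-type libraries.

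On the other side, the miR-72 family had a median log2 fold change of 0.22 over 3 strands and the miR-50 family one of 0.29 over 3 strands. miR-72-5p had 35368 and 38321 CPM in cluster-only libraries, against 30187 and 33239 in wild-type libraries, without overlap. miR-90-3p had 21688 and 31171 in cluster-only libraries, against 18672 and 23209 in wild-type libraries, with overlap. The strands linked to stress and lifespan in adults, miR-34-5p, miR-71-5p and miR-239a-5p, had a median of 0.06. miR-71-5p, the most abundant of these, had 1447 and 1724 in cluster-only libraries, against 1438 and 1609 in wild-type libraries.

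The 10 most abundant strands outside the family in wild type held 61.0% of its UMIs outside the family. They were the 8 strands of the miR-35 family, already counted above, with miR-58a-3p and miR-72-5p. Of these 10, 8 had negative log2 fold changes, beside 60% of all 150, and 2 positive. The values lay between -0.70 for miR-37-3p and 0.22 for miR-72-5p. None of the 10 passed the test (lowest edgeR adjusted p = 0.306). In 6 of 10 both cluster-only libraries were below both wild-type libraries, beside 32% of all 150. On the scale that sums all strands, 1 of the 8 miR-35 family strands was negative and miR-58a-3p was at 0.0052.

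Markers of tissues and stages were measured beside these results. In bulk samples, fewer cells of a type and less RNA per cell cannot be told apart. miR-1-3p, the muscle miRNA, had 16708 and 15338 CPM in cluster-only libraries, against 18805 and 19694 in wild-type libraries (log2 fold change -0.26 ± 0.44, edgeR adjusted p = 0.905). The neuronal miR-124-3p had 5418 and 3045 in cluster-only libraries, against 7281 and 5063 in wild-type libraries, with overlap. The other neuronal strand, lsy-6-3p, had 41.4 and 70.6 CPM in cluster-only libraries, against 70.1 and 76.0 in wild-type libraries, also with overlap. These rest on 5 and 7 UMIs, against 40 and 11 in the deeper wild-type libraries. The glial miR-228-5p had 4599 and 4266 in cluster-only libraries, against 3673 and 3661 in wild-type libraries (0.27 ± 0.29, edgeR adjusted p = 0.841). No marker passed the test, and the miR-35 family, the embryo marker, was among the most abundant strands in both strains.

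The miRNAs that time larval stages were low in both strains. let-7-5p had 356 and 252 CPM in cluster-only libraries, against 314 and 387 in wild-type libraries, and lin-4-5p had 24.8 and 111, against 109 and 41.4. miR-48-5p had 182 and 645 in cluster-only libraries, against 379 and 249 in wild-type libraries, and miR-84-5p had 16.5 and 80.7, against 33.3 and 20.7. In all 4 the libraries overlapped. miR-241-5p, counted as 0 UMIs in both cluster-only libraries, against 16 and 3 in wild-type libraries, was lower without overlap. miR-237-5p had 24.8 and 40.3 CPM in cluster-only libraries, against 19.3 and 13.8 in wild-type libraries, higher without overlap. It rests on 3 and 4 UMIs, against 11 and 2, and neither of these strands passed the test. The let-7 family, with miR-241-5p, had a median log2 fold change of 0.09 over 4 strands, and the lin-4 family, lin-4-5p and miR-237-5p, one of 0.25 over 2 strands. For miR-48-5p, miR-84-5p and lin-4-5p the cluster-only libraries differed by more than 3 times from each other, and a part of embryo age in the results was not tested. The 5 larval strands summed to 579 and 1089 in cluster-only libraries, against 863 and 718 in wild-type libraries.

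The 2 arms of a hairpin come from the same precursor, and both were tested in 50 hairpins outside the family. The arms had log2 fold changes of the same sign in 26 of 50. Across these hairpins the log2 fold changes of the arms had a Pearson correlation of -0.04. In 5 of 50 hairpins the arms lay on opposite sides of wild type without overlap, mir-36, mir-61, mir-62, mir-86 and mir-228. Of all 150 strands outside the family, 14% lay above wild type without overlap and 32% below. Whether 5 hairpins exceed what unrelated arms would give was not tested. In mir-86, miR-86-5p was at 17883 and 14703 CPM in cluster-only libraries, against 11256 and 11377 in wild-type libraries, whereas miR-86-3p was at 240 and 282, against 542 and 456. In mir-62, miR-62-3p was at 11439 and 9721 in cluster-only libraries, against 8894 and 8386 in wild-type libraries, whereas its passenger miR-62-5p was at 306 and 252, against 922 and 566. These arm differences were not tested.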

How the data were processed

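Libraries of 50 embryos each, 16 in all from 8 strains, held 18481 to 844718 UMIs on miRNA strands. The authors quantified miRNAs and random nucleotides with their Nextflow pipeline and deposited estimated counts of reads and UMIs per strand, not normalized, with ambiguous reads split between the strands they match. A deposited count of unsplit UMIs is given too. The submitters' processing notes name WBcel235, and the aligner is not given in the sources used here. A strand missing from a library's list was set to 0.

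Split UMIs were rounded and fitted in edgeR 4.0.16 (R 4.3.3; quasi-likelihood test, all 16 libraries, strain as factor, TMM over strands outside the family, Benjamini-Hochberg adjustment over 162 strands). Totals and ratios used exact two-sided permutation of log2 values, and intervals are 95%. Python 3.11.15, numpy 2.4.6, pandas 2.3.3, scipy 1.17.1 and matplotlib 3.10.9 were used besides. Simulated data with 162 strands served to test the fit, and 3.06% of calls in them were false. In each draw 48 strands outside the family were changed, and all strands had the same dispersion.

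Strands were named by rule: those of the hairpins mir-51 to mir-57, the 10 others with the smallest unadjusted p, the 10 others most abundant in wild type, miR-70-3p, and up to 4 abundant members of each list. The members and lists were chosen with earlier results of these data known. Alternatives were other scalings, reads, unsplit UMIs, a correction for shared UMIs, other filters, DESeq2 1.42.0, 4 libraries alone, the replicate block and each library left out. Strains left out and crossed pairings were alternatives chosen after seeing the data. Coordinates are from Ensembl release 115.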

Additional observations from a re-analysis of the deposited data

How the results depend on the processing

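The 3 deleted guides kept their direction and their side of the threshold under all alternatives run. The count of strands called, 6 with all 16 libraries, was 12 on the sum of all miRNA strands (6 higher and 6 lower), 21 with the 4 libraries alone, and 17 by DESeq2 on those 4. The replicate block gave 6 with all libraries and 22 with the 4 alone. On the sum of all strands the log2 fold change of miR-54-3p was 0.85 (edgeR adjusted p = 0.0233, against 0.545 to 0.986 on the TMM scale with each library left out), and the directions of miR-55-5p (0.33), miR-56-5p (0.13), miR-57-5p (0.18) and miR-58a-3p (0.0052) turned. The sum of strands outside the family turned miR-55-5p to 0.049. The cause was not tested.

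Leaving out each library in turn gave 4 to 5 calls. Without either wild-type library miR-52-3p missed the filter, and miR-53-3p lost its call without the first wild-type library or either cluster-only library. By DESeq2 miR-53-3p had -5.78 (adjusted p = 0.932). With each library left out, the log2 fold change of miR-56-3p ran from -0.0066 (without wild-type library 1) to 0.16, that of miR-55-5p from -0.24 to 0.028, and the ratio of miR-55-3p to miR-54-3p over wild type from 0.883 to 1.04 (without cluster-only library 1). miR-70-3p was called without a filter and when the miR-54 only strain was left out. Deviations of same-numbered libraries had a correlation of -0.12 over 150 strands, which does not settle whether the replicate numbers pair the samples. Crossed numbers, chosen after seeing the data, gave 6 calls with all libraries and 9 with the 4 alone. The numbers as given led to 6 and 22.

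Depth limits the low strands: outside the family, 21 strands listed in both wild-type libraries and in neither cluster-only library had at most 16 UMIs in a wild-type library.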
